A study of Mus musculus with 16 samples.

Results

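The miR-183, miR-96 and miR-182 cluster is a group of 3 microRNA genes on mouse chromosome 6. Its 5p arms mmu-miR-182-5p, mmu-miR-183-5p and mmu-miR-96-5p, written without the species prefix below, were followed by name through all 16 small RNA libraries of the study. They are 3 of 1978 mature names listed, and 2 of the 3, miR-182-5p and miR-183-5p, passed the filter on low counts that left 102 names for testing. Each library holds laser-dissected blastocyst tissue, either polar (the side of the inner cell mass) or mural (trophectoderm away from it). The study asks which miRNAs change when blastocysts pause naturally or through inhibition of mTOR, a kinase that couples nutrients to growth. Polar and mural pieces came from blastocysts diapaused in vivo and taken at EDG 7.5 (n = 3 libraries each), from mTOR-inhibited blastocysts (mTORi, n = 3 each), and from normal blastocysts at embryonic day 4.5 (WT, n = 2 each). In diapause the embryo halts, reversibly, before it implants. The labels give no embryonic day for the mTORi group, no strain, no name or dose of the inhibitor and no number of embryos per library. Age and pausing therefore cannot be told apart, and the p-values measure the spread between these libraries. For 3 libraries the title gives no part and includes the word diapaused, and they are used here as mural mTORi because their tissue and treatment labels say so.

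The cluster is transcribed as 1 primary RNA, from which the 3 hairpins are cut and processed into mature miRNAs. A mature miRNA finds its target mRNAs mainly through its seed, bases 2 to 8 from the 5′ end, and lowers their stability and translation. The cluster is best known from photoreceptors and the hair cells of the inner ear, and changes in the seed of Mir96 cause hearing loss in mice and humans. It is also found in epithelia, and in human cancer cells its members repress the transcription factor FOXO1.

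The mature sequences, from RefSeq for GRCm38.p6, are shown because the 3 members differ in the bases that choose their targets. All 3 names were found in that table. Capitals mark the seed.
miR-182-5p: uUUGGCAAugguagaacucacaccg
miR-183-5p: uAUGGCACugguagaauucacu
miR-96-5p: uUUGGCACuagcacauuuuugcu
The seeds are related but not shared. Aligned from their first base, miR-182-5p and miR-96-5p matched in 6 of 7 seed bases, miR-183-5p and miR-96-5p in 6 of 7, and miR-182-5p and miR-183-5p in 5 of 7. Over the whole sequence the closest pair was another one. miR-182-5p and miR-183-5p matched in 18 of 22 bases and shared the run ugguagaa from base 9, while miR-96-5p matched miR-182-5p in 12 of 23 and miR-183-5p in 13 of 22 bases. The only other mature mouse miRNA in the table with a member's seed is miR-1271-5p, which has that of miR-96-5p and had 0 counts in all 16 libraries.

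The hairpins lie on the minus strand of chromosome 6 in GRCm38, in the order Mir183, Mir96 and Mir182 along the transcript. Mir183 spans 30169668 to 30169737 (70 bases), Mir96 30169446 to 30169551 (106 bases) and Mir182 30165918 to 30165992 (75 bases). Mir96 follows Mir183 after 116 bases, and Mir182 lies 3453 bases further on. All 3 fall within Mirc35hg, a long noncoding RNA gene of RefSeq that spans 30158640 to 30174125 on the same strand, and no other GENCODE gene overlaps a hairpin. Rncr4, a long noncoding RNA on the plus strand, spans 30172893 to 30175126 and starts upstream of Mir183. The hairpins are printed because both arms of each are named in the count files, and the capitals mark the 5p arm.
Mir183: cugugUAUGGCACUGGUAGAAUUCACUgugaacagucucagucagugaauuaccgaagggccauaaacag
Mir96: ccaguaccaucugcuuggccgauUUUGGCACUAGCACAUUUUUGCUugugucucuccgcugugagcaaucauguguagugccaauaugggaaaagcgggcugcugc
Mir182: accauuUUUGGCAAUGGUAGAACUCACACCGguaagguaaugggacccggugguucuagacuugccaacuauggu
The arms were used unequally. Over all libraries miR-182-5p had 3120 counts and miR-182-3p 0, miR-96-5p had 98 and miR-96-3p 0, and miR-183-5p had 1340 and miR-183-3p 6. Taking 3 counts over all libraries as the floor, the 5p arm was at least 1040-fold higher for miR-182 and at least 32.7-fold higher for miR-96. For miR-183 the ratio of 5p to 3p was 223 (exact 95% interval 102 to 610). The 6 counts of miR-183-3p were spread over 5 of the 6 diapaused libraries. This was 74.5 per 1000000 counts, and 0 counts in the mTORi and WT libraries allow up to 148 and 140 per 1000000, so no difference was detectable at this depth.

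**Figure D1:**
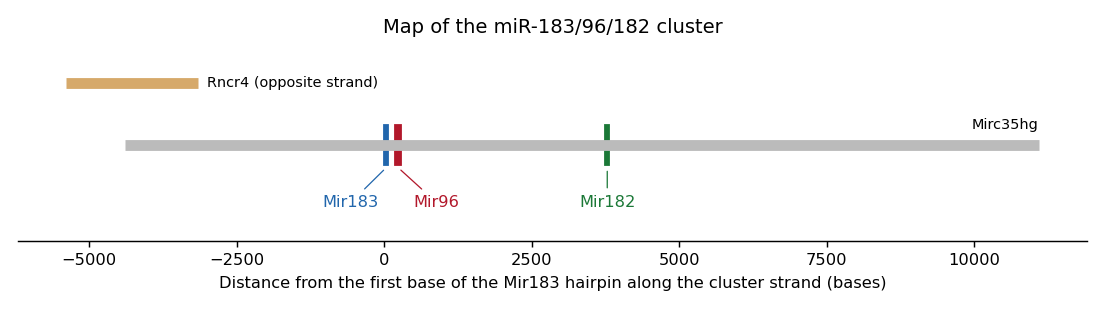
Map of the cluster drawn to scale, with distance in bases from the first base of the Mir183 hairpin along the minus strand of chromosome 6. The coloured boxes are the 3 hairpins, the grey bar is Mirc35hg and the tan bar is Rncr4 on the opposite strand. Mir183 and Mir96 are separated by 116 bases and Mir96 and Mir182 by 3453 bases.

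Depth was low and moved with the groups. The libraries held 122251 counts in all, with 9049 to 20051 in each diapaused, 2184 to 4386 in each mTORi and 1744 to 8366 in each WT library. The 4 miR-302/miR-367 names that mark the epiblast had 15, 2 and 14 counts in polar diapaused, mTORi and WT libraries and 0 in mural ones. They took 0.021% to 0.0884% of counts in polar diapaused, 0% to 0.0916% in polar mTORi and 0.142% to 0.401% in polar WT libraries. The 4 names of the Dlk1-Dio3 miRNA cluster had 179, 54 and 41 counts in polar diapaused, mTORi and WT libraries and 2, 0 and 1 in mural ones. The part of these differences in the results below was not tested. The 3 trophectoderm names of the miR-322/miR-503 cluster took 0.229% to 1.6% of counts in polar and 1.99% to 6.64% in mural libraries. The 6 miR-290/miR-295 names, found in all cells of the blastocyst, took 22.4% to 44.7%. The 5 neuronal names had 0 counts in all 16 libraries. Of other tissues, the 3 muscle names had at most 2 counts in a group and liver miR-122-5p at most 5. Polar mTORi replicate 3 stood apart, with 748 counts of miR-203-3p and 156 of miR-205-5p, known from stratified epithelium. Together these took 25.8% of its counts, against at most 1.83% in any other library. In polar WT replicate 2 the 5 blood names took 2.59% of counts, with 113 counts of the red cell miR-451a, against at most 0.321% elsewhere. Because of this, the members' levels and most of their differences that use polar mTORi replicate 3 are given with and without it.

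The cluster took between 1.03% and 6.83% of the counts of a library. Its share of all counts was 4.91% ± 1.67 (SD, n = 3) in polar diapaused, 2.38% ± 1.34 (n = 3) in polar mTORi and 5.1% ± 0.822 (n = 2) in polar WT libraries. In mural pieces it was 3.11% ± 0.121 (n = 3) in diapaused, 3.18% ± 0.625 (n = 3) in mTORi and 4.43% ± 0.664 (n = 2) in WT libraries. The lowest share, 1.03%, was in polar mTORi replicate 3, and the other polar mTORi libraries were at 2.42% and 3.71% (mean 3.06%). Of the 4558 counts of the cluster, miR-182-5p made up 68.5%, miR-183-5p 29.4% and miR-96-5p 2.15%. By mean level among the 102 tested names, miR-182-5p ranked between 5 (polar WT) and 12 (polar mTORi) in the 6 groups, and miR-183-5p between 10 (polar diapaused) and 33 (polar mTORi). With replicate 3 left out, their ranks in polar mTORi were 8 and 25. Levels are given below in counts per 1000000 tested counts after TMM scaling (CPM).

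In polar pieces miR-182-5p averaged 28892 ± 8937 CPM in diapaused (SD, n = 3), 17592 ± 6400 in mTORi (n = 3) and 34007 ± 1117 in WT libraries (n = 2). In mural pieces it averaged 26558 ± 2313 CPM in diapaused (n = 3), 26599 ± 2613 in mTORi (n = 3) and 31098 ± 3388 in WT libraries (n = 2). The order from high to low was polar WT, mural WT, polar diapaused, mural mTORi, mural diapaused and polar mTORi, and only the last step was larger than the larger SD of the 2 neighbours. miR-183-5p averaged 15085 ± 2728 CPM in polar diapaused, 6285 ± 4325 in polar mTORi and 13344 ± 3148 in polar WT libraries. In mural libraries it averaged 11419 ± 752 CPM in diapaused, 6183 ± 2333 in mTORi and 12009 ± 3285 in WT. Its order was polar diapaused, polar WT, mural WT, mural diapaused, polar mTORi and mural mTORi, and only the step from mural diapaused down to polar mTORi was larger than the larger SD beside it. Leaving out replicate 3, the polar mTORi means were 21223 ± 1687 CPM for miR-182-5p and 8181 ± 3982 CPM for miR-183-5p (n = 2), still the lowest for miR-182-5p and second lowest for miR-183-5p. The step from mural diapaused to polar mTORi for miR-183-5p was then 3238 CPM, less than the larger SD.

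**Figure D2:**
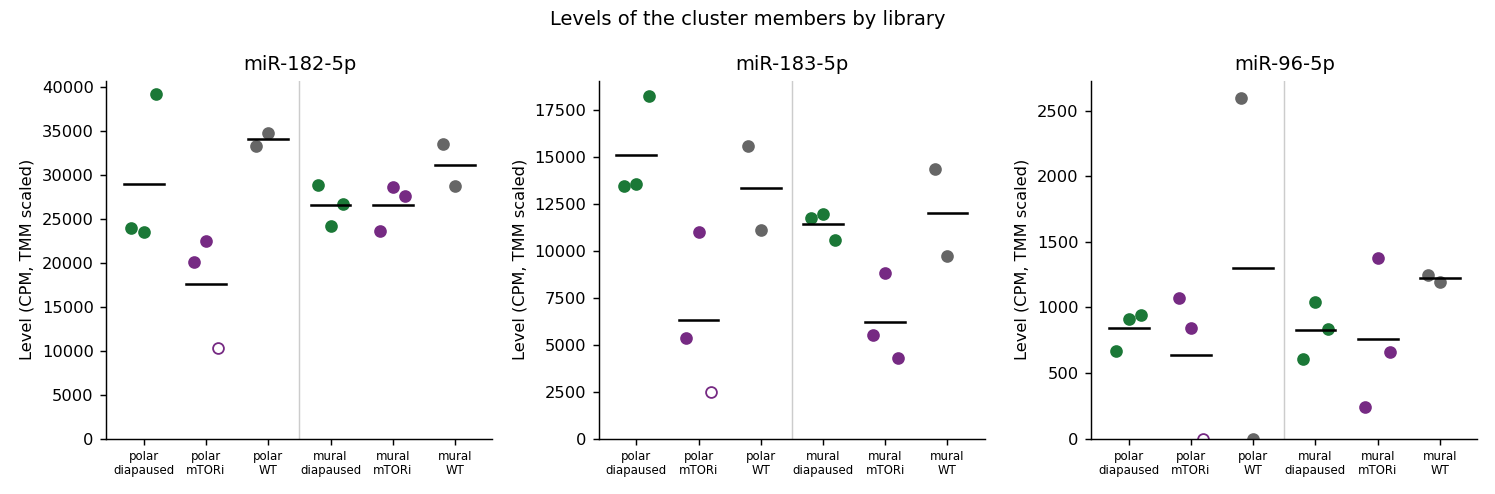
Levels of the 3 members in each library (points, CPM on linear axes that start at 0), with the mean of each group as a bar. The open circle is polar mTORi replicate 3, which has the lowest level of miR-182-5p and of miR-183-5p of all 16 libraries and 0 counts of miR-96-5p.

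Diapaused blastocysts were compared with WT to ask what natural pausing changes, and neither tested member was called. In polar pieces miR-182-5p was at 23979, 23489 and 39208 CPM in diapaused libraries and at 33217 and 34797 CPM in WT libraries. The groups overlapped, because diapaused replicate 3 was above both WT libraries and the other 2 were below both. miR-183-5p was at 13455, 13567 and 18234 CPM in polar diapaused and at 15570 and 11118 CPM in polar WT libraries, which also overlapped. The CPM of 45.1% of the tested names did not overlap in this comparison. The log2 differences were -0.24 for miR-182-5p (SE 0.31, edgeR adjusted p = 0.705) and 0.19 for miR-183-5p (SE 0.45, adjusted p = 0.874). In this comparison 7.84% of the tested names were called, and the median log2 difference of all tested names was 0.10.

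Mural pieces gave the same picture for diapause. miR-182-5p was at 28825, 24201 and 26648 CPM in mural diapaused and at 33493 and 28702 CPM in mural WT libraries, and miR-183-5p at 11751, 11948 and 10558 CPM in mural diapaused and at 14332 and 9687 CPM in mural WT libraries. Both pairs of groups overlapped, miR-182-5p only through diapaused replicate 1 and WT replicate 2, while 43.1% of names did not overlap. The log2 differences were -0.23 for miR-182-5p (SE 0.30, edgeR adjusted p = 0.748) and -0.07 for miR-183-5p (SE 0.44, adjusted p = 0.93), beside a median of 0.19 over all tested names, of which 9.8% were called. Averaged over the parts, miR-182-5p differed by -0.23 (95% interval -0.69 to 0.22, edgeR adjusted p = 0.548), with 18.6% of names called. miR-183-5p differed by 0.06 (95% interval -0.60 to 0.73, adjusted p = 0.941), a direction that turned with RLE (-0.14) and library size scaling (-0.07).

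mTORi blastocysts were set against the same WT libraries to ask what induced pausing changes, so the 2 treatments share their controls. In polar pieces miR-182-5p was at 20029, 22416 and 10331 CPM in mTORi and at 33217 and 34797 CPM in WT libraries. miR-183-5p was at 5365, 10996 and 2494 CPM in polar mTORi and at 15570 and 11118 CPM in polar WT libraries. Every mTORi library lay below every WT library for both members, for miR-183-5p by only 122 CPM between mTORi replicate 2 and WT replicate 2. Such a separation downward was seen for 23.5% of the tested names. miR-182-5p was 0.516-fold its WT level (log2 -0.95, SE 0.31, edgeR adjusted p = 0.0327) and was called, as were 22.5% of tested names. miR-183-5p, at -1.09 on the same scale (SE 0.48, edgeR adjusted p = 0.0948), was not called. The median over all tested names was 0.18.

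The polar call was not stable. It ended in a fit of only these groups (-0.88, edgeR adjusted p = 0.202). With polar mTORi replicate 3 left out, the log2 difference of miR-182-5p was -0.45 (SE 0.27, edgeR adjusted p = 0.256) and that of miR-183-5p -0.47 (SE 0.42, adjusted p = 0.447). The call of miR-182-5p also ended without polar WT replicate 1 (-1.09, edgeR adjusted p = 0.0753) and without polar WT replicate 2 (-0.84, adjusted p = 0.134), and it remained without polar mTORi replicates 1 and 2 (-1.07 and -1.40). miR-183-5p was called without polar mTORi replicate 2 (-1.99, edgeR adjusted p = 0.0127). miR-203-3p alone held 21.4% of the counts of polar mTORi replicate 3. With it taken out of every library's total, miR-182-5p held 1.84%, 2.47% and 1.05% of counts in polar mTORi replicates 1, 2 and 3, against 3.69% and 3.43% in polar WT replicates 1 and 2. miR-183-5p held 0.492%, 1.21% and 0.254% in polar mTORi libraries, against 1.73% and 1.1% in polar WT libraries. Replicate 3 was lowest for both members on this scale too. miR-205-5p, with 4.46% of the counts of replicate 3, stayed in the totals, and the part of other tissue in these values was not tested. In pieces of tissue, fewer cells of a type and less RNA per cell cannot be told apart.

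In mural pieces the mTORi libraries were again all below the WT libraries. miR-182-5p was at 23630, 28549 and 27619 CPM in mTORi and at 33493 and 28702 CPM in WT libraries, a gap of 153 CPM between the nearest libraries. miR-183-5p was at 5490, 8784 and 4274 CPM in mural mTORi and at 14332 and 9687 CPM in mural WT libraries. Of all tested names 24.5% were separated in this direction. The log2 difference was -0.23 for miR-182-5p (SE 0.31, edgeR adjusted p = 0.751) and -0.95 for miR-183-5p (SE 0.45, adjusted p = 0.175), with a median of -0.06 over all tested names. Neither was called, while 11.8% of names were. The value of miR-182-5p was 0.01 without mural mTORi replicate 1, so its direction in mural pieces was not settled. The mTORi effect did not differ detectably between the parts, with a polar minus mural difference of -0.73 for miR-182-5p (SE 0.44, edgeR adjusted p = 0.517) and -0.14 for miR-183-5p (SE 0.67, adjusted p = 0.983). With polar mTORi replicate 3 left out the value of miR-182-5p was -0.39 (SE 0.36, edgeR adjusted p = 0.67). That of miR-183-5p turned to 0.29 (SE 0.55, edgeR adjusted p = 0.836).

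Averaged over the parts, both tested members were called lower in mTORi than in WT blastocysts, where 16.7% of tested names were called lower and 32.4% in either direction. miR-182-5p was 0.664-fold its WT level (log2 -0.59, SE 0.22, edgeR adjusted p = 0.0461) and miR-183-5p 0.494-fold (log2 -1.02, SE 0.33, adjusted p = 0.0277), beside a median of -0.01. Both calls ended in a fit of only the groups compared (-0.68, edgeR adjusted p = 0.0598, and -1.10, adjusted p = 0.0765). Fitted without polar mTORi replicate 3, the log2 differences were -0.25 for miR-182-5p (SE 0.18, edgeR adjusted p = 0.263) and -0.61 for miR-183-5p (SE 0.27, adjusted p = 0.0998). The call of miR-182-5p also ended without mural mTORi replicates 1, 2 and 3 (-0.33, -0.43 and -0.35), polar WT replicate 2 (-0.57) or mural WT replicates 1 and 2 (-0.53 and -0.69), with edgeR adjusted p of 0.0612 to 0.29. That of miR-183-5p also ended without mural mTORi replicates 1 and 3 (-0.75 and -0.66), polar WT replicates 1 and 2 (-0.96 and -1.11) or mural WT replicate 1 (-0.87), with edgeR adjusted p of 0.0558 to 0.131. In these 10 fits, each without 1 library, the difference stayed negative for both members, and miR-182-5p was called in 3 and miR-183-5p in 4.

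Natural and induced pausing were also compared directly. In polar pieces the diapaused libraries were above the mTORi libraries for both members without overlap. The lowest diapaused libraries stood at 23489 CPM of miR-182-5p and 13455 CPM of miR-183-5p, and the highest mTORi library, replicate 2, at 22416 CPM and 10996 CPM. A separation upward was seen for 21.6% of tested names. miR-183-5p was 2.43-fold higher in diapaused than in mTORi pieces (log2 1.28, SE 0.42, edgeR adjusted p = 0.0492) and was called, as were 15.7% of names in either direction. miR-182-5p stood at 0.72 (SE 0.28, edgeR adjusted p = 0.0901), and the median over all tested names was 0.12. In the fit without polar mTORi replicate 3 the differences were 0.64 for miR-183-5p (SE 0.37, edgeR adjusted p = 0.257) and 0.17 for miR-182-5p (SE 0.24, adjusted p = 0.634). The call of miR-183-5p remained only without polar mTORi replicate 2 (2.0, edgeR adjusted p = 0.00943). It ended without polar mTORi replicate 1 (1.20) and without polar diapaused replicates 1, 2 and 3 (1.38, 1.38 and 1.12). It also ended with RLE scaling (1.24, edgeR adjusted p = 0.0522), library size scaling (1.47, adjusted p = 0.0535) and when only these 2 groups were fitted (1.19, adjusted p = 0.219).

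In mural pieces neither tested member was called. miR-183-5p was at 10558 to 11948 CPM in diapaused libraries and at 4274 to 8784 CPM in mTORi libraries, without overlap, a separation upward that 29.4% of names had. miR-182-5p overlapped and had a log2 value of -0.0019 (SE 0.27, edgeR adjusted p = 1), and that of miR-183-5p was 0.88 (SE 0.41, adjusted p = 0.189). The call rate over all names was 0.98%. The median log2 difference of all tested names was 0.41.

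Polar and mural pieces were compared to ask whether the cluster marks a part, and neither tested member was called in any treatment. Averaged over treatments the log2 difference was -0.12 for miR-182-5p (95% interval -0.48 to 0.25, edgeR adjusted p = 0.745) and 0.18 for miR-183-5p (95% interval -0.36 to 0.72, adjusted p = 0.742), while 27.5% of tested names were called and the median was 0.03. With library size scaling the value of miR-182-5p was 0.09, and without polar mTORi replicate 3 it was -0.03. In diapaused blastocysts all polar libraries were above all mural ones for miR-183-5p (log2 0.40, SE 0.39, edgeR adjusted p = 0.54), a separation upward that 18.6% of names had, and 18.6% of names were called. In mTORi blastocysts all polar libraries were below all mural ones for miR-182-5p (log2 -0.60, SE 0.28, edgeR adjusted p = 0.248), a separation downward that 6.86% of names had, and 4.9% were called. That difference was -0.30 when polar mTORi replicate 3 was left out (SE 0.25, edgeR adjusted p = 0.633), and the polar mTORi libraries that remain, at 20029 and 22416 CPM, were still below the mural ones. In WT blastocysts the differences were 0.13 and 0.14 for miR-182-5p and miR-183-5p, with 10.8% of names called, and both overlapped where 52% of names did not.

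**Figure D3:**
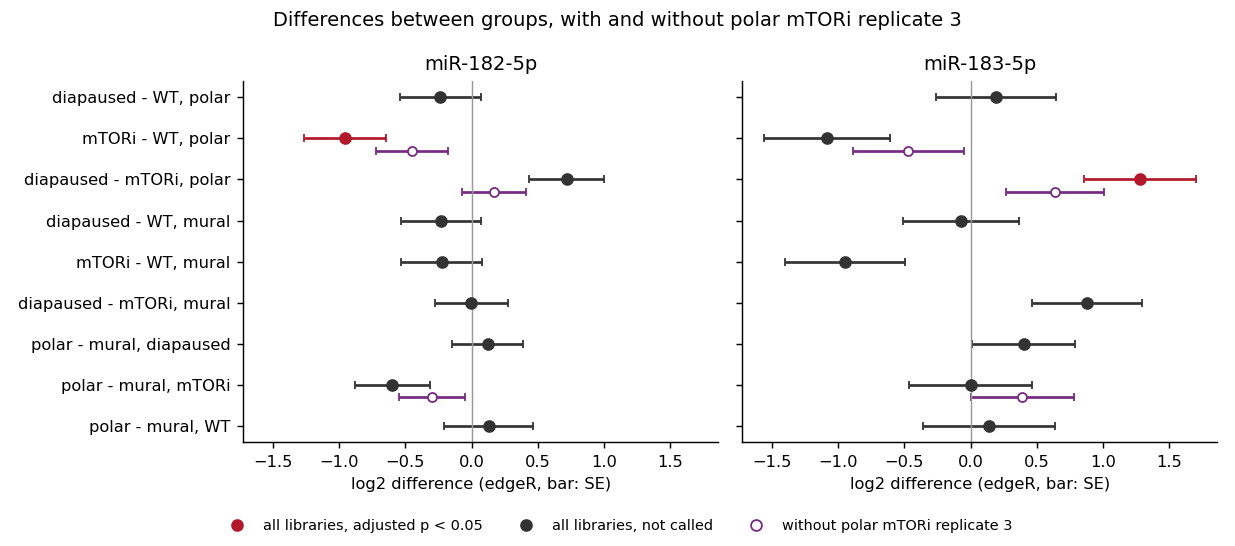
Log2 differences of miR-182-5p and miR-183-5p between groups (points, bars are the SE of edgeR's quasi-likelihood fit), with called differences in red and the fit without polar mTORi replicate 3 as open circles. The 2 called differences within a part, -0.95 for miR-182-5p in polar mTORi minus WT and 1.28 for miR-183-5p in polar diapaused minus mTORi, become -0.45 and 0.64 without that library.

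miR-96-5p, the member tied to hearing, was close to the limit of detection. It had 10, 9 and 10 counts in polar diapaused, 3, 2 and 0 in polar mTORi and 5 and 0 in polar WT libraries. In mural libraries it had 6, 17 and 10 counts in diapaused, 1, 5 and 2 in mTORi and 8 and 10 in WT. It was thus found in 14 of 16 libraries, and its 0 counts allow up to 0.0857% of the counts of polar mTORi replicate 3 and 0.0607% of those of polar WT replicate 2. The ratio of its summed counts, relative to the summed scaled totals, was 1.11 in polar diapaused over WT (exact 95% interval 0.425 to 3.67), 0.851 in polar mTORi over WT (0.196 to 3.7), 0.709 in mural diapaused over WT (0.388 to 1.34) and 0.604 in mural mTORi over WT (0.227 to 1.46). Leaving out replicate 3, which had 0 counts, the polar mTORi ratio was 1.31 (0.303 to 5.71). All 5 intervals contain 1, so no difference was detectable at this depth. In a fit of all 497 names with a count, its log2 differences from WT ran from -0.85 (mural mTORi, SE 0.97) to -0.24 (polar diapaused, SE 1.09), with edgeR adjusted p = 1 in each part.

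Ratios within the cluster need no scaling between libraries, because both counts come from 1 library. From counts summed over all libraries the ratio of miR-182-5p to miR-183-5p was 2.33 (exact 95% interval 2.18 to 2.48). It was 31.8 for miR-182-5p to miR-96-5p (26 to 39.3) and 13.7 for miR-183-5p to miR-96-5p (11.1 to 17). These sums weigh libraries by depth, and diapaused libraries held 80531 of the 122251 counts. With each library weighed equally, the mean log2 ratio of miR-182-5p to miR-183-5p was 1.45 (0.5 added to counts). In polar pieces the ratio of miR-182-5p to miR-183-5p was 1.78, 1.73 and 2.15 in diapaused, 3.73, 2.04 and 4.14 in mTORi and 2.13 and 3.13 in WT libraries. In mural pieces it was 2.45, 2.03 and 2.52 in diapaused, 4.3, 3.25 and 6.46 in mTORi and 2.34 and 2.96 in WT libraries. miR-182-5p was thus the more abundant in every library, and all 3 mural mTORi libraries were above every other mural library. From summed counts the ratio was 1.9 in polar diapaused (1.71 to 2.12), 2.88 in polar mTORi (2.06 to 4.08) and 2.77 in polar WT (2.15 to 3.6). In mural pieces it was 2.28 in diapaused (2.04 to 2.56), 4.22 in mTORi (3.23 to 5.58) and 2.63 in WT (2.2 to 3.15). These intervals cover counting error only, and the polar mTORi ratio without replicate 3 was 2.66 (1.84 to 3.91).

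The 3 ratios were compared in 4 contrasts, 12 tests in all, on log2 of counts with 0.5 added. The ratio of miR-182-5p to miR-183-5p was 0.567-fold in diapaused against mTORi blastocysts, a log2 difference of -0.82 averaged over the parts, with -0.71 in polar and -0.92 in mural pieces (exact permutation test within parts, two-sided p = 0.01, adjusted over the 12 tests p = 0.12). It was -0.73 without polar mTORi replicate 3 (exact permutation p = 0.01, adjusted p = 0.12). The groups overlapped in polar pieces, through mTORi replicate 2, and not in mural pieces. Against WT the ratio differed by 0.50 in mTORi (exact permutation p = 0.12, adjusted p = 0.288) and by -0.31 in diapaused blastocysts (p = 0.09, adjusted p = 0.288), and polar minus mural it differed by -0.29 (p = 0.112, adjusted p = 0.288). Without polar mTORi replicate 3 the mTORi difference from WT was 0.41 (exact permutation p = 0.2, adjusted p = 0.48). The smallest p these tests allow is 0.01 against WT, 0.005 between the treatments and 0.000833 between the parts. Of the 12, 1 had an unadjusted p under 0.05 and none passed after adjustment. In a treatment contrast, 1 ratio alone could not pass adjustment over the 12 tests even at its smallest p. That none passed therefore does not show that the ratios were equal.

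**Figure D4:**
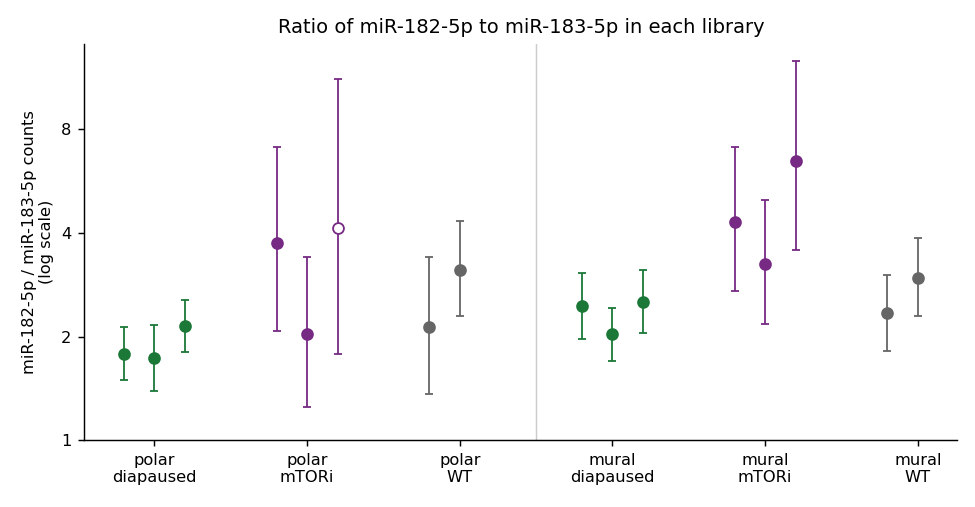
Ratio of miR-182-5p to miR-183-5p counts in each library on a log axis, with exact 95% intervals for counting error. The open circle is polar mTORi replicate 3 (4.14), and mural mTORi libraries (3.25 to 6.46) lie above mural diapaused (2.03 to 2.52) and mural WT libraries (2.34 and 2.96).

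Ratios to miR-96-5p were too coarse for a comparison. Where miR-96-5p had a count, the ratio of miR-182-5p to it ran from 12.8 (polar WT replicate 1, on 5 counts) to 99 (mural mTORi replicate 1, on 1 count). That of miR-183-5p ran from 5 (polar mTORi replicate 1) to 23 (mural mTORi replicate 1). The smallest p of the 8 tests was that of miR-183-5p to miR-96-5p in diapaused against mTORi blastocysts, with a log2 difference of 0.85 (exact permutation p = 0.055, adjusted p = 0.288), and it was 1.04 without polar mTORi replicate 3 (p = 0.025, adjusted p = 0.15).

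The names that kept the steadiest ratio to each member were found by the SD over the 16 libraries of the log2 ratio of counts, a description that rests on libraries sharing their depth and composition. Around miR-182-5p the steadiest were miR-291a-5p (SD 0.42) and miR-292a-5p (SD 0.43), both of the miR-290/miR-295 cluster of embryonic stem cells, and miR-140-3p (SD 0.46), best known from cartilage. miR-183-5p came 8th among 101 names with an SD of 0.51, where the median name had 1.06. Around miR-183-5p the steadiest were miR-182-5p (SD 0.51), miR-291a-5p (SD 0.52) and miR-290a-5p (SD 0.54), with a median of 1.15. The ratio between the 2 abundant members thus varied less than the ratio of either to most other names, but miR-182-5p had 7 names with a steadier ratio to it. Counting error widens the SD for names with few counts, so these ranks also depend on abundance, which was not corrected for. The order changed when polar mTORi replicate 3 was left out. The steadiest names, given here after their values were seen, were then miR-293-3p (SD 0.35), miR-741-3p (SD 0.37) and miR-291a-5p (SD 0.40) for miR-182-5p, with miR-183-5p at rank 11. For miR-183-5p they were miR-290a-5p (SD 0.42), miR-741-3p (SD 0.50) and miR-182-5p (SD 0.51). Around miR-96-5p the SDs were larger, from 0.94 for miR-669c-5p, 1.00 for miR-378a-3p and 1.05 for miR-101b-3p, while miR-183-5p (SD 1.09) ranked 6 and miR-182-5p (SD 1.11) ranked 8 of 102. Leaving out that library, they were miR-669c-5p (SD 0.88), miR-125a-5p (SD 0.93) and miR-741-3p (SD 0.98).

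The miR-200 family, 5 epithelial miRNAs that repress Zeb1 and Zeb2, was set beside the cluster because both are known from epithelia. In polar diapaused against WT pieces 2 of the 5 were called higher, as were 5.88% of tested names. These were miR-200b-3p at 1.39 (SE 0.38, edgeR adjusted p = 0.0311) and miR-200c-3p at 1.26 (SE 0.25, adjusted p = 0.00653), with miR-141-3p at 1.96, miR-200a-3p at 1.74 and miR-429-3p at 1.71 not called. The call of miR-200b-3p ended without polar diapaused replicate 1, 2 or 3 (edgeR adjusted p = 0.092, 0.0763 and 0.0568). It also ended with no filter (edgeR adjusted p = 0.0686), while miR-200c-3p remained called in these fits. Without polar WT replicate 1, miR-200b-3p stood at 1.02 and miR-200c-3p at 1.33, and without polar WT replicate 2 at 1.79 and 1.10. Each of these last fits leaves 1 polar WT library. Both miR-200b-3p and miR-200c-3p were called higher in polar mTORi against WT pieces, by 1.53 (SE 0.39) and 1.01 (SE 0.25, edgeR adjusted p = 0.0187 for both), where 12.7% of names were. The values of miR-182-5p and miR-183-5p there were -0.95 and -1.09. In the fit without polar mTORi replicate 3, the library with 25.8% of its counts in miR-203-3p and miR-205-5p, miR-200b-3p stood at 1.92 (SE 0.39, edgeR adjusted p = 0.00191) and miR-200c-3p at 1.41 (SE 0.25, adjusted p = 0.000754). Neither was called in a fit of only the polar mTORi and WT groups (1.66, edgeR adjusted p = 0.121, and 1.06, adjusted p = 0.14). With no filter miR-200b-3p was called (1.33, edgeR adjusted p = 0.0421) and miR-200c-3p was not (0.82, adjusted p = 0.0927). Without polar WT replicate 1 the 2 values were 1.19 and 1.11, and without polar WT replicate 2 they were 1.94 and 0.87.

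Averaged over the parts, 4 of the 5 were called higher in diapaused and 2 of the 5 in mTORi blastocysts, and none was called lower. The median log2 differences of the family were 1.28 and 0.82. Those not called were positive too, miR-429-3p in diapaused (1.53) and miR-141-3p (1.26), miR-200a-3p (0.84) and miR-429-3p (0.36) in mTORi blastocysts. Of all tested names 14.7% were called higher in diapaused and 15.7% in mTORi blastocysts. Averaged over treatments, 3 of the 5 were called lower in polar than in mural pieces, with a median of -0.86, where 14.7% of names were called lower. Over the other settings and left-out libraries the diapaused count ran from 1 to 5, the mTORi count from 1 to 3 and the count lower in polar pieces from 1 to 4. Without polar WT replicate 2 the medians were 2.27 in diapaused and 1.86 in mTORi blastocysts and -1.67 in polar minus mural pieces. Without polar WT replicate 1 they were 1.06, 0.52 and -0.745. Either fit leaves 1 polar WT library, replicate 1 with 1744 counts or replicate 2 with 4940. These alternatives for the family were chosen after seeing the data. In mural pieces alone, 1 of the 5 was called higher in diapaused and 0 in mTORi libraries than in WT. The median log2 differences of the family there were 0.93 and 0.14, and 9.8% and 11.8% of tested names were called in either direction. The difference between the cluster and the family was not tested.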

How the data were processed

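Small RNA of 16 libraries was made with adapters holding unique molecular identifiers, 12 to 20 PCR cycles and no size selection, and was read over 75 nt, per the labels' protocols. The authors deposited raw counts per mature miRNA name for each library, unnormalized. The submitters' processing notes name GRCm38. Which aligner and counter were used, and whether identifiers were collapsed, is not stated in the labels or headers, so intervals and floors (3 counts) cover counting error only.

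The members and lists were chosen with earlier results of these data known. In R 4.3.3, edgeR 4.0.16 kept 102 names (filterByExpr, minimum count 10, minimum total 15), which hold 92.83% to 97.61% of each library's counts. It scaled by TMM and fitted a quasi-likelihood model with 1 mean for each of 6 groups (10 residual degrees of freedom, common dispersion 0.1417). In 14 contrasts a name was called at a two-sided Benjamini-Hochberg adjusted p under 0.05 over all tested names. SEs are the log2 difference over the root of the F statistic. The script was tested on simulated data. Ratios were tested by exact permutation within part or treatment (SciPy 1.17.1). Named miRNAs were the members, their 3p arms, miRNAs sharing a seed, the 3 steadiest names for each member and the miR-200 family. Alternatives were RLE and library size scaling, no filter (497 names), a minimum count of 30 (51 names), DESeq2 1.42.0, a fit of only the groups compared, a block on replicate number, a pseudocount of 1, summed counts and leaving out each library. A fit without both libraries that stand apart was added after seeing the data.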

Additional observations from a re-analysis of the deposited data

How the results depend on the processing

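Depth sets the main limit. A library held 1744 to 20051 counts, mTORi libraries had 7 to 32 counts of miR-183-5p, and WT groups had 2 libraries. Of 253 values recomputed under other settings for the tested members and the ratios, 211 kept their direction and their side of the threshold. Of 365 recomputed without 1 library 300 did so. Most of these results had not been called, and for them staying uncalled counts as kept. Ratios from summed counts have no p-value and were judged by direction and size alone. The cause of a change was not tested. Called results in mTORi against WT stayed negative in all settings.

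The 4 calls changed as follows (log2 difference, edgeR adjusted p). miR-182-5p in polar mTORi minus WT was -0.88 (0.202) with only the groups compared and -0.63 (0.271) without polar mTORi replicate 3 and polar WT replicate 2, and ran from -1.40 to -0.45 without 1 library. Averaged over the parts it was -0.68 (0.0598) and -0.46 (0.126) in these fits and -0.80 to -0.25 without 1 library, and miR-183-5p was -1.10 (0.0765) and -0.94 (0.0515), and -1.45 to -0.61 without 1 library. miR-183-5p in polar diapaused minus mTORi was 1.24 (0.0522) with RLE scaling, 1.47 (0.0535) with library size scaling, 1.19 (0.219) with only the groups compared, 0.89 (0.168) without both libraries and 0.64 to 2.0 without 1 library. miR-183-5p was newly called in polar mTORi minus WT with DESeq2 (-1.16, adjusted p 0.0465) and without polar mTORi replicate 2 (range without 1 library -1.99 to -0.47), and in mural pieces with only the groups compared (-0.97, 0.0287).

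Whether equal replicate numbers come from the same embryos is not known, and they were not taken to pair polar and mural libraries. The correlation of deviations was over 0.1 in 7 of 8 pairs (range -0.011 to 0.364). The 2 WT pairs count as 1, both at 0.307, because deviations within a group of 2 libraries mirror each other. Of the diapaused and mTORi libraries, 8 of 12 correlated best with their own number out of 3. These values do not settle whether the numbers pair the libraries. With the replicate block miR-182-5p and miR-183-5p in mTORi minus WT over the parts were -0.60 (0.0747) and -0.95 (0.052), miR-183-5p was 0.04 in mural diapaused minus WT and -0.02 in mTORi polar minus mural, and the ratio of miR-182-5p to miR-183-5p differed by -0.32 polar minus mural (exact sign-flip test, p = 0.0156, adjusted p = 0.0938).

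Values that were never called changed sign as follows. For miR-182-5p, polar minus mural was 0.09 on average with library size scaling and -0.12 in WT without both libraries, and mural diapaused minus mTORi was 0.02 with no filter. Its diapause effect, polar minus mural, was 0.14 with RLE, 0.39 with library size, 0.06 with no filter, 0.40 with the stricter filter, 0.18 with only the groups compared, 0.14 with DESeq2 and 0.13 without both libraries. For miR-183-5p, diapaused minus WT over the parts was -0.14 with RLE, -0.07 with library size, -0.02 with no filter, -0.03 with the stricter filter, -0.13 with DESeq2 and -0.07 without both libraries. Without both libraries it was also -0.01 in polar diapaused minus WT, and its mTORi effect, polar minus mural, was 0.09. In mTORi, polar minus mural, it was -0.01 with RLE and DESeq2 and -0.05 with no filter. The ratio to miR-96-5p without both libraries differed for miR-182-5p by 0.91 (diapaused minus WT), 0.60 (mTORi minus WT) and -0.63 (polar minus mural), and for miR-183-5p by 0.05 (mTORi minus WT) and -0.20 (polar minus mural).

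Without 1 library, miR-182-5p ran from -0.40 to 0.01 in mural mTORi minus WT, -0.31 to 0.02 in mural diapaused minus mTORi, -0.13 to 0.33 in diapaused and -0.13 to 0.22 in WT polar minus mural, and -0.26 to 0.31 for the diapause effect between parts. miR-183-5p ran from -0.01 to 0.30 (polar), -0.40 to 0.26 (mural) and -0.09 to 0.30 (mean) in diapaused minus WT. It ran from -0.99 to 0.44 (mTORi), -0.24 to 0.42 (WT) and -0.19 to 0.32 (mean) polar minus mural, and from -1.09 to 0.33 for the mTORi effect between parts. For miR-182-5p that effect ran from -1.19 to -0.39. The log2 ratio of miR-182-5p to miR-96-5p ran from -1.51 to 0.91 (diapaused minus WT), -1.55 to 0.88 (mTORi minus WT), -0.18 to 0.31 (diapaused minus mTORi) and -0.45 to 1.17 (polar minus mural). That of miR-183-5p to miR-96-5p ran from -1.06 to 1.09 (diapaused minus WT), -1.91 to 0.24 (mTORi minus WT) and -0.07 to 1.36 (polar minus mural).

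The number of tested names called also moved over these settings and left-out libraries. It was 8 (2 to 15) in polar and 10 (0 to 14) in mural diapaused minus WT and 19 (7 to 22) on average. In mTORi minus WT it was 23 (2 to 32) in polar, 12 (6 to 22) in mural and 33 (12 to 37) on average. In polar minus mural it was 19 (5 to 30) in diapaused, 5 (0 to 10) in mTORi and 11 (4 to 20) in WT, and in diapaused minus mTORi 16 (3 to 21) in polar and 1 (0 to 17) in mural pieces. The median of all tested names in diapaused polar minus mural was 0.58 with library size scaling, against 0.11 with TMM.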
